A study of Mus musculus with 8 samples.

Results

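Transcripts of 38 mouse genes of glycolysis and of the hypoxia response were measured by bulk RNA-seq in sorted T follicular helper (Tfh) cells. The members were taken from a fixed list of gene symbols matched to the deposited tables, by a rule that uses no measured value. They are 38 of the 38 symbols listed, 37 of them among the 16735 genes present in both tables. All 37 passed the filter on low counts and were tested among 14418 genes, and the remaining one, Vegfa, the gene of a secreted angiogenic factor, was read from the table of experiment 2 alone, and was not tested. It had 4 estimated counts in Peyer's patch ZsGreen+, 0 in Peyer's patch ZsGreen−, 1 in spleen ZsGreen+ and 2 in spleen ZsGreen− cells.

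The donors were K/BxN mice, which develop arthritis spontaneously through autoimmunity. They carried a Th17 fate-mapping reporter, with which the fluorescent protein ZsGreen stays on in cells that once passed through the Th17 state. All groups shared this background and the same gate, CD4+ TCRβ+ CD25− CXCR5+ PD-1+. The 4 groups were Peyer's patch ZsGreen+ cells (labelled ZG), Peyer's patch ZsGreen− cells (labelled control), spleen ZsGreen+ cells and spleen ZsGreen− cells, with 2 libraries each, replicate 1 in experiment 1 and replicate 2 in experiment 2. Peyer's patches are the lymphoid follicles of the small intestinal wall. The labels give no age and do not say that replicates come from separate animals, so p-values here reflect only how far these libraries vary, and part of that variation may be technical. The reporter marks a cell's history, so a ZsGreen+ cell need not be in the Th17 state at the time of the sort.

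Libraries held 10009823 to 15323743 estimated counts. Cxcr5 and Pdcd1, the genes of CXCR5 and PD-1 in the gate, and Bcl6, a Tfh marker outside the gate, were present in every library. Within each experiment the levels of these 3 genes in CPM (counts scaled to library size) were lowest in spleen ZsGreen+ cells. Cxcr5 had 636 and 633 CPM in Peyer's patch ZsGreen+, 767 and 802 CPM in Peyer's patch ZsGreen−, 124 and 105 CPM in spleen ZsGreen+ and 351 and 390 CPM in spleen ZsGreen− libraries. Bcl6 had 82.8 and 16.6 CPM in spleen ZsGreen+ libraries, against 110 and 46 CPM in spleen ZsGreen− libraries, and Pdcd1 had 374 and 505 CPM against 386 and 1580 CPM. Other Tfh markers differed in this. Sh2d1a was also lowest there within each experiment (61.5 and 201 CPM). Icos had 259 and 840 CPM in spleen ZsGreen+ libraries, above 208 and 736 CPM in spleen ZsGreen− libraries. Il21 had 186 and 144 CPM against 125 and 247 CPM. The part of these marker levels in the results that rest on spleen ZsGreen+ cells was not tested. The experiments differed strongly, so every comparison below is within experiments, through an experiment term in the model. The summed CPM of 7 B cell markers was 60.4 in Peyer's patch ZsGreen+ replicate 1 and 35.2 in Peyer's patch ZsGreen− replicate 1, against 1.53 to 4.65 in the other 6 libraries, with Pax5 making up most of it. Epithelial markers summed to 5.88 to 16.2 CPM in Peyer's patch libraries and 2.25 to 9.26 CPM in spleen libraries (4 genes), and myeloid markers to 30 to 35.3 CPM in Peyer's patch libraries and 8.49 to 22.0 CPM in spleen libraries (5 genes). The 3 measured markers of CD8 T and NK cells summed to 46.8 to 72.5 CPM in Peyer's patch libraries and 18.4 to 32 CPM in spleen libraries. Klrb1c made up most of it, at 43.7 to 67.2 CPM in Peyer's patch and 15.8 to 23.5 CPM in spleen libraries. Cd8b1 had 2.81 to 6.3 CPM in Peyer's patch and 2.45 to 10.3 CPM in spleen libraries, and Cd8a at most 0.871 CPM. The epithelial keratin gene Krt8 was at 0 in all 4 spleen libraries. Epcam, of the same list, overlapped between the tissues, at 1.36 to 4.43 CPM in Peyer's patch and 1.44 to 5.83 CPM in spleen libraries. Plasma cell markers summed to 108 to 212 CPM in Peyer's patch libraries and 72.9 to 276 CPM in spleen libraries. Xbp1, the largest part of this sum, had 71 to 181 CPM in Peyer's patch and 70.6 to 269 CPM in spleen libraries. Jchain, the immunoglobulin joining chain gene, had 9.19 to 37.3 CPM in Peyer's patch libraries and 1.6 to 9.74 CPM in spleen libraries. The 2 measured erythroid markers summed to 24.1 and 0.075 CPM in Peyer's patch ZsGreen+, 18.3 and 0 CPM in Peyer's patch ZsGreen−, 7.4 and 2.91 CPM in spleen ZsGreen+ and 3.53 and 6.59 CPM in spleen ZsGreen− libraries. Mitochondrial genes took 4.76% and 4.53% of counts in Peyer's patch ZsGreen+ libraries, 4.87% and 6.002% in Peyer's patch ZsGreen−, 2.81% and 3.19% in spleen ZsGreen+ and 2.70% and 5.26% in spleen ZsGreen− libraries, higher in Peyer's patch in every pair of the same sort and experiment. The part of these markers and of the mitochondrial share in the tissue results was not tested. In bulk RNA, fewer cells expressing a gene and less RNA per cell cannot be told apart.

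Glycolysis splits glucose into pyruvate in the cytosol and is the main fast source of ATP and carbon in activated T cells. Glucose enters through the GLUT transporters, is committed by hexokinase and phosphofructokinase, and leaves as lactate when lactate dehydrogenase reduces pyruvate. The transcription factor HIF-1, made of HIF-1α (Hif1a) and ARNT, is marked for destruction in oxygenated cells by the prolyl hydroxylases EGLN1 to EGLN3 (Egln1, Egln2, Egln3) and the VHL ubiquitin ligase, and in low oxygen it activates many glycolytic genes along with genes of mitophagy and collagen modification. HIF-1 also acts downstream of T cell receptor and mTOR signals, and it is known to favour the Th17 fate in mouse T cells.

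Scaled to exon length (RPKM), the order of the members' levels differed between the experiments. Ldha, which encodes the lactate dehydrogenase subunit A that turns pyruvate into lactate, averaged 174 RPKM in experiment 1 and 1090 RPKM in experiment 2. Ddit4, which encodes the mTORC1 inhibitor REDD1, was the highest member of experiment 1 with 194 RPKM and had 17.2 RPKM in experiment 2. Pkm, the pyruvate kinase gene, averaged 166 RPKM in experiment 1 and 411 RPKM in experiment 2, and Aldoa, the main aldolase gene, 130 and 338 RPKM. Hif1a averaged 83.9 and 80 RPKM. Hk2, the inducible hexokinase gene, was the lowest tested member of each experiment, at 0.769 and 0.229 RPKM, while the constitutive Hk1 had 24.4 and 14.2 RPKM. Hk2 made up 0.693% to 4.32% of the summed RPKM of Hk1 and Hk2. Pfkp held 51.2% to 69.9% of the summed RPKM of the 3 phosphofructokinase genes, Pfkl 26.9% to 36.3% and Pfkm 2.80% to 13.0%.

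Several of these genes have processed pseudogenes of nearly the same sequence, and the level printed for the gene depends on how reads were shared out. Near-identical copies (at least 95% identity over at least 60% of the copy) held 90.2% of the summed counts of Gapdh and its 35 copies, 71.5% for Eno1 and its 3 copies and 70.7% for Pgk1 and its 2 copies. They held 34.9% for Bnip3l, 28.3% for Pgam1, 26.2% for Gpi1, 18.4% for Ldhb, 13.1% for Bnip3, 11.7% for Higd1a and 7.27% for Pkm, and under 1% for Ldha and Tpi1. The levels of these genes are therefore uncertain, and calls that changed when copies were added to their gene are named beside the result. No copy was found for the other tested members.

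The mean log2 CPM of the 37 tested members (the module level) was 5.85 and 5.90 in Peyer's patch ZsGreen+ libraries, 5.85 and 5.80 in Peyer's patch ZsGreen− libraries, 5.51 and 5.56 in spleen ZsGreen+ libraries, and 5.54 and 5.73 in spleen ZsGreen− libraries (experiments 1 and 2). By this mean, Peyer's patch libraries of either sort lay above spleen libraries of the same experiment. The difference of Peyer's patch over spleen was 0.34 and 0.34 in ZsGreen+ cells and 0.31 and 0.07 in ZsGreen− cells. The difference of ZsGreen+ over ZsGreen− was 0.00 and 0.10 in Peyer's patch and -0.03 and -0.17 in spleen, so that in experiment 2 both sort differences were larger in size than the tissue difference of ZsGreen− cells. With the median over members in place of the mean, the tissue difference was 0.211 in ZsGreen+ cells and 0.0418 in ZsGreen− cells. With the log2 of summed CPM, in which abundant enzymes weigh most, it was 0.088 in ZsGreen+ cells and 0.0148 in ZsGreen− cells. These are averages over the experiments. In experiment 2 summed CPM was lower in Peyer's patch than in spleen, at 10080 against 10120 in ZsGreen+ and 9552 against 10460 in ZsGreen− cells. In experiment 1 it was higher, at 5226 against 4605 and 5027 against 4498. The median of the members' own tissue differences was 0.31 and 0.143 in ZsGreen+ cells (experiments 1 and 2). In ZsGreen− cells it was 0.203 and -0.0648.

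**Figure D1:**
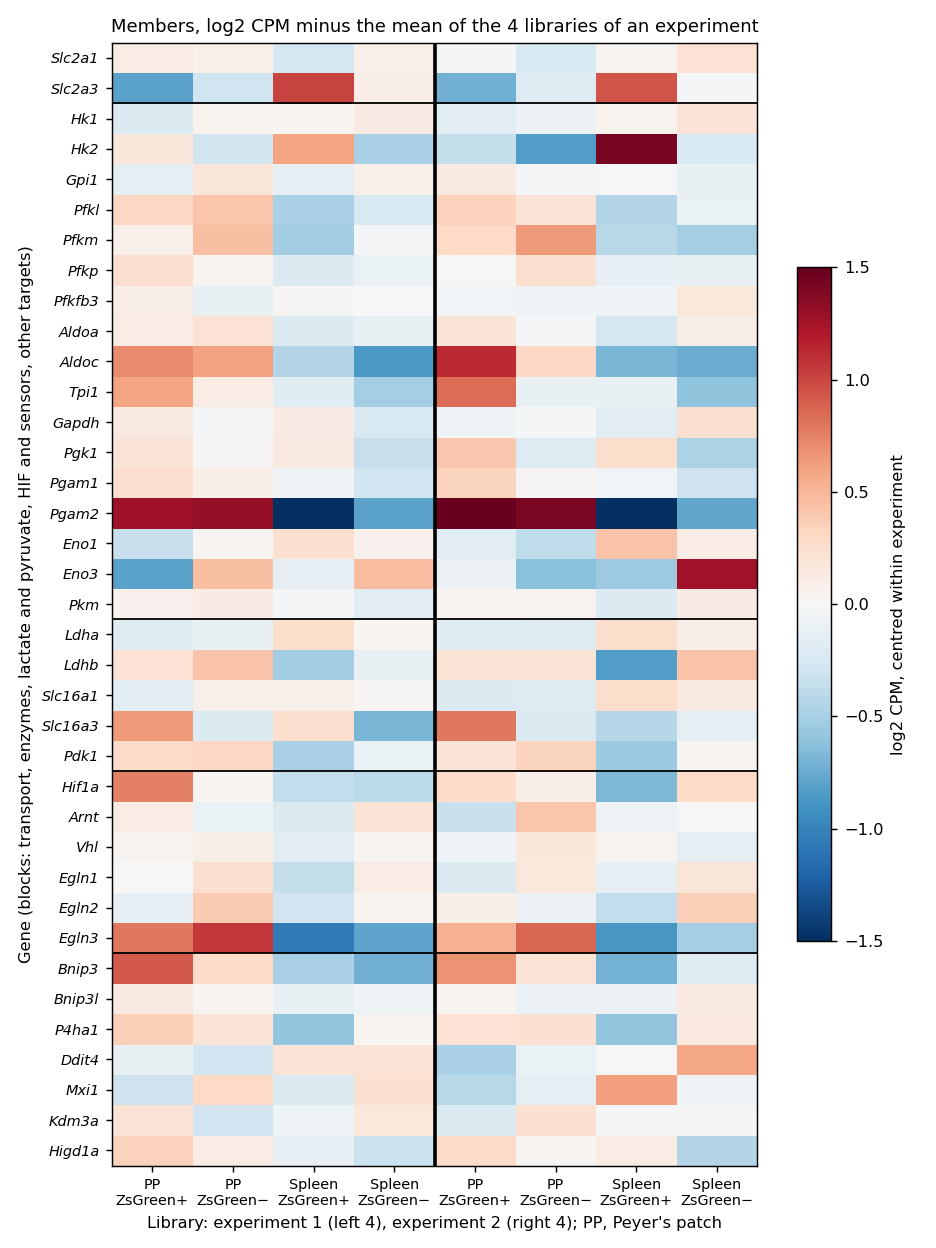
Log2 CPM of each tested member in each library, minus the mean of the 4 libraries of the same experiment, for experiment 1 (left 4 columns) and experiment 2 (right 4 columns); red is above and blue below that mean, and colours stop at 1.5 either way. Pgam2, Egln3 and Aldoc are red in all 4 Peyer's patch columns and blue in all 4 spleen columns, and Slc2a3 and Hk2 are red in spleen ZsGreen+ cells in both experiments.

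Between tissues, Tfh cells of the Peyer's patch had more transcript of the oxygen sensor Egln3 and of the isoenzymes Pgam2 and Aldoc than spleen Tfh cells in both sorts. In ZsGreen+ cells 10 of 37 members were higher in Peyer's patch and 2 lower at an adjusted p under 0.05, where 5.51% of all tested genes were higher and 7.17% lower (12.7% in either direction). In ZsGreen− cells 4 members were higher and 0 lower, where 1.82% of all tested genes were higher and 3.68% lower (5.49% in either direction). At an unadjusted p under 0.05 the members lower in ZsGreen− Peyer's patch cells numbered 1 (Ddit4), 2.70% of them against 10.5% of all tested genes, and DESeq2 called 0 lower. edgeR called Ddit4 lower with no count filter (adjusted p = 0.0492) and with only the compared libraries (adjusted p = 0.0375). The median log2 fold change of the members was 0.16 in ZsGreen+ cells and 0.10 in ZsGreen− cells, against 0.02 and 0.00 over all tested genes. In both experiments 22 members were higher in Peyer's patch ZsGreen+ cells (59.5%, against 36.6% of all tested genes) and 8 lower (21.6%, against 34.4%). Scaled by library totals alone, 1009 of all tested genes were higher and 873 lower in ZsGreen+ cells, against 794 and 1034 with TMM, and 11 members were higher and 1 lower. In ZsGreen− cells that scaling gave 454 genes higher and 532 lower, against 262 and 530, and the same numbers of members. All p-values for genes are from edgeR's quasi-likelihood test with Benjamini-Hochberg adjustment over all 14418 genes.

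**Figure D2:**
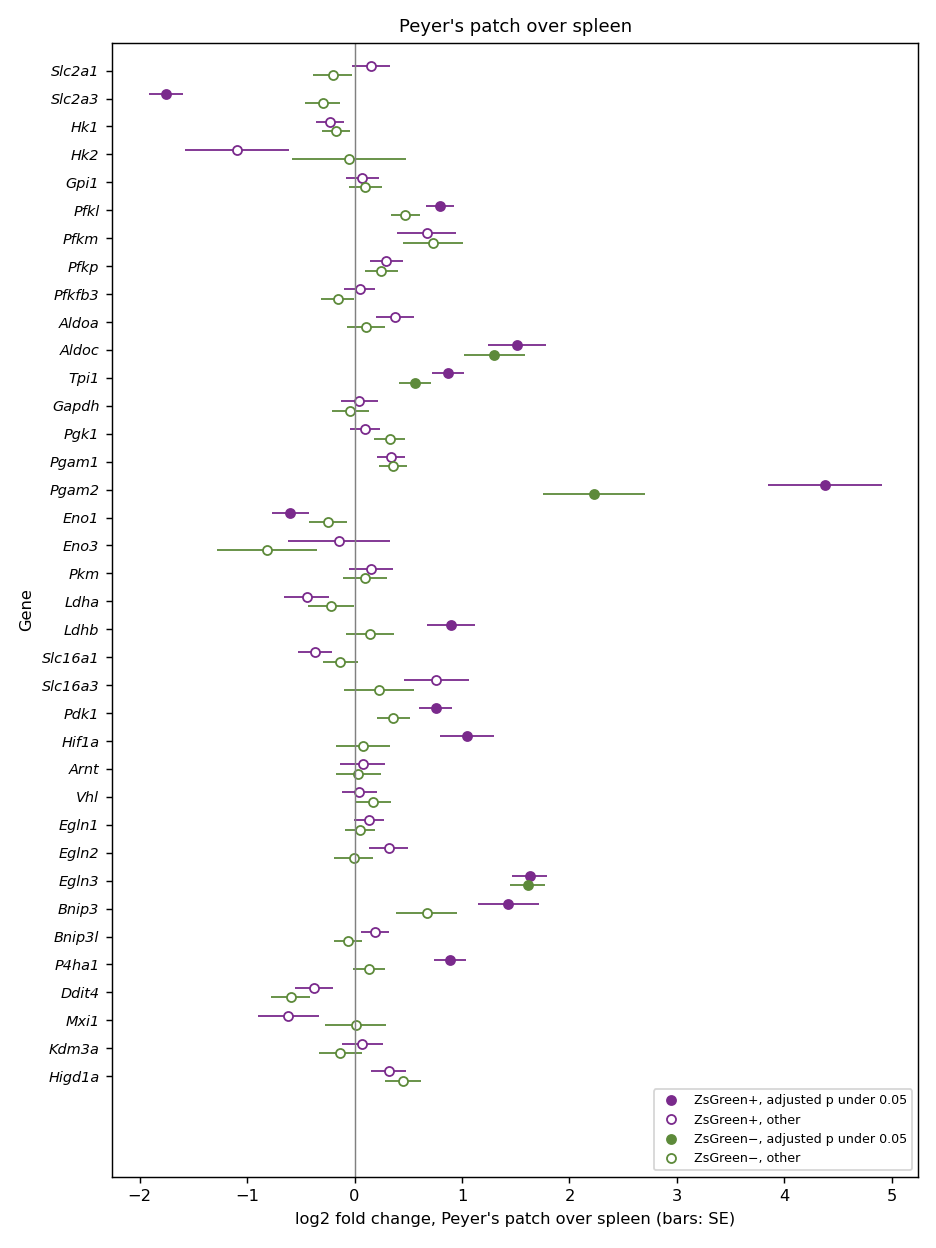
Log2 fold change of Peyer's patch over spleen for each tested member, in ZsGreen+ cells (purple) and ZsGreen− cells (green), with bars of 1 SE; filled points have an adjusted p under 0.05. Egln3, Aldoc, Pgam2 and Tpi1 are filled in both sorts, with Pgam2 at 4.38 and 2.23, and Slc2a3 stands alone at -1.76 in ZsGreen+ cells.

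Egln3 encodes a prolyl hydroxylase of HIF-1α, is itself a HIF target, and lies at chr12:54225767-54250647 on the minus strand (mm39, as the deposited tables give it). Its level was 146 and 113 CPM in Peyer's patch ZsGreen+ libraries and 175 and 143 CPM in Peyer's patch ZsGreen− libraries, against 40.3 and 43.2 CPM in spleen ZsGreen+ and 48.4 and 55.6 CPM in spleen ZsGreen− libraries. All 4 Peyer's patch libraries lay above all 4 spleen libraries. The log2 fold change of Peyer's patch over spleen was 1.63 ± 0.16 (SE) in ZsGreen+ cells (edgeR adjusted p = 7.38e-05) and 1.61 ± 0.16 in ZsGreen− cells (adjusted p = 0.000163), a fold change of 3.10 and 3.06. The tissue difference between the sorts was 0.02 ± 0.22 (adjusted p = 0.998). Per exon length, Egln3 held 53.5% and 54.6% of the summed RPKM of the 3 prolyl hydroxylase genes in Peyer's patch ZsGreen+ libraries and 51.7% and 58.7% in Peyer's patch ZsGreen− libraries, against 27.6% and 34.3% in spleen ZsGreen+ and 25.9% and 32.2% in spleen ZsGreen− libraries. Egln1 and Egln2, the other hydroxylase genes, did not pass in either tissue comparison, at log2 fold changes from -0.01 to 0.32.

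Pgam2 encodes the muscle-type phosphoglycerate mutase and lies at chr11:5751640-5753734 on the minus strand (mm39). It had 5.85 and 15.6 CPM in Peyer's patch ZsGreen+ libraries and 5.99 and 8.20 CPM in Peyer's patch ZsGreen− libraries, against 0.586 and 0.257 CPM in spleen ZsGreen+ and 1.28 and 1.69 CPM in spleen ZsGreen− libraries. Every Peyer's patch library lay above every spleen library. The log2 fold change of Peyer's patch over spleen was 4.38 ± 0.53 in ZsGreen+ cells (edgeR adjusted p = 0.000276) and 2.23 ± 0.47 in ZsGreen− cells (adjusted p = 0.0164). The spleen side rested on few reads, 11 and 3 estimated counts in ZsGreen+ libraries and 24 and 11 in ZsGreen− libraries. In ZsGreen+ cells the ratio of Peyer's patch to spleen was 9.99 in experiment 1 (95% interval 5.36 to 20.6) and 60.7 in experiment 2 (20.5 to 297), exact binomial intervals that cover counting error only. Pgam1, the broadly expressed isoenzyme gene, did not pass in either sort (0.34 ± 0.13 and 0.36 ± 0.13 on the log2 scale), and Pgam2 stayed the minor form per length, at 6.35% to 11.3% of the summed RPKM in Peyer's patch libraries and 0.220% to 3.46% in spleen libraries.

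Aldoc, the gene of the brain-type aldolase, at chr11:78213794-78218608 on the plus strand (mm39), had 11 and 20.5 CPM in Peyer's patch ZsGreen+ libraries and 10.2 and 11.6 CPM in Peyer's patch ZsGreen− libraries, against 4.90 and 5.74 CPM in spleen ZsGreen+ and 3.64 and 5.52 CPM in spleen ZsGreen− libraries. Here too the tissues did not overlap. The log2 fold change was 1.51 ± 0.27 in ZsGreen+ cells (edgeR adjusted p = 0.00316) and 1.30 ± 0.28 in ZsGreen− cells (adjusted p = 0.0187). Aldoa did not pass in either sort (0.38 ± 0.18 and 0.11 ± 0.18), and Aldoc held 1.07% to 2.37% of the summed RPKM of Aldoa and Aldoc in Peyer's patch libraries and 0.471% to 1.32% in spleen libraries. Tpi1, the triose-phosphate isomerase gene, was the remaining member to pass in both sorts. It had 152 and 446 CPM in Peyer's patch ZsGreen+ libraries and 109 and 231 CPM in Peyer's patch ZsGreen− libraries, against 88.6 and 231 CPM in spleen ZsGreen+ and 70.6 and 164 CPM in spleen ZsGreen− libraries. Its log2 fold change was 0.87 ± 0.15 (adjusted p = 0.00223) in ZsGreen+ cells and 0.56 ± 0.15 (adjusted p = 0.0476) in ZsGreen− cells, and within each experiment Peyer's patch was above spleen in both sorts.

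**Figure D3:**
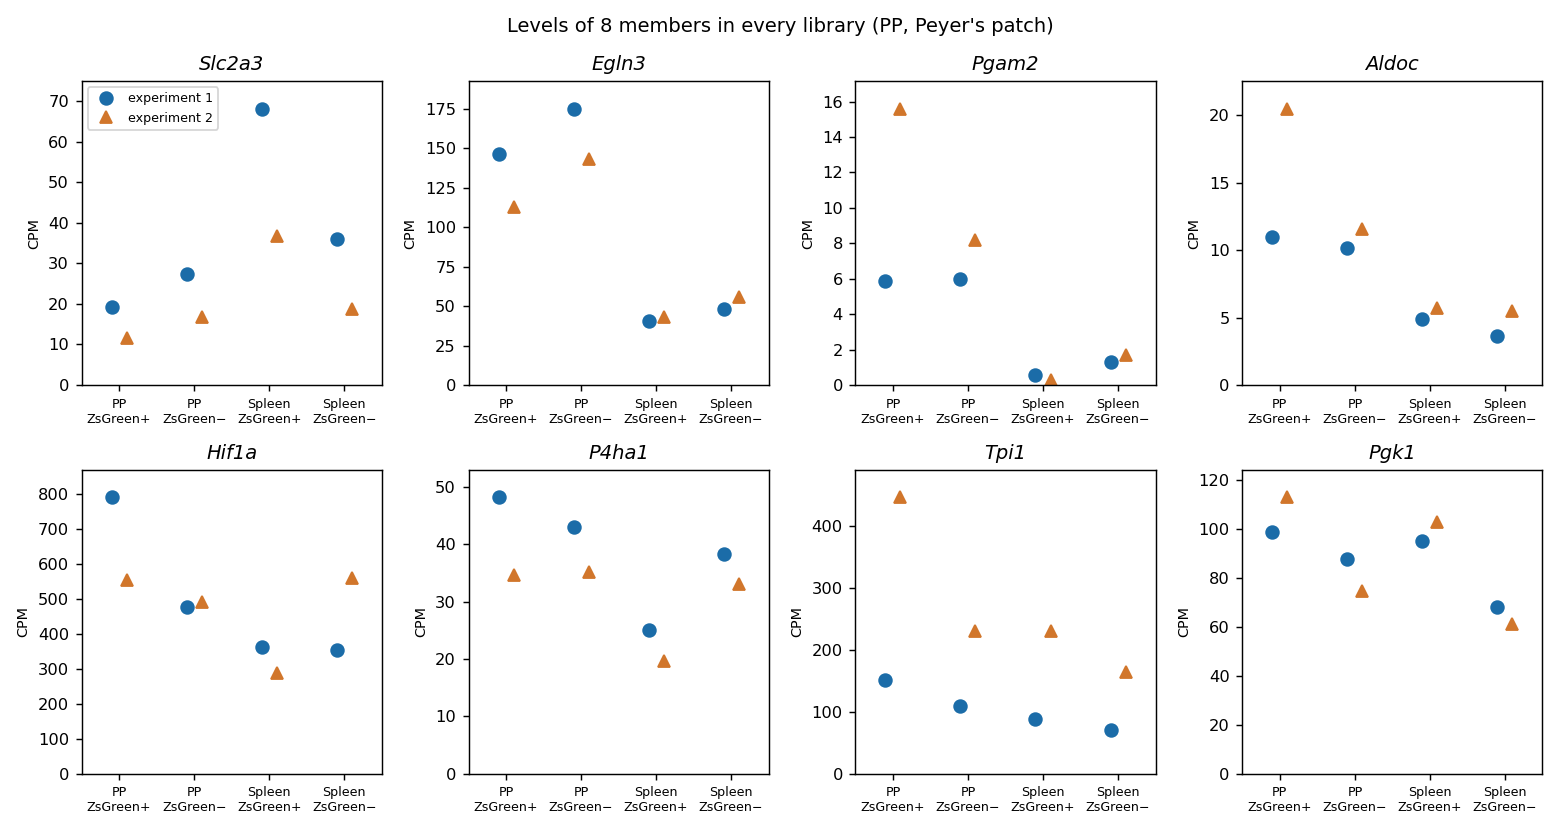
CPM of 8 members in each library, by group, with circles for experiment 1 and triangles for experiment 2. For Egln3, Pgam2 and Aldoc all Peyer's patch points lie above all spleen points; Slc2a3 is highest in spleen ZsGreen+ cells (68.1 and 36.8 CPM), and P4ha1 is lowest there (25.0 and 19.7 CPM).

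Upstream sequence is shown for 5 of the 12 members that passed between tissues and for Pgk1, which passed between sorts in spleen. These 6 were chosen after their values were seen, to show windows with many matches, few and none. The windows are the 250 bases before the annotated start in RefSeq (GRCm38.p6), 5′ to 3′ on the gene's strand, and capitals mark matches to ACGTG or GCGTG, the core letters of the HIF response element, on either strand (CACGT or CACGC in the printed strand; matches may overlap). RefSeq windows were found for 36 of 38 members. The windows belong to Egln3 (chr12:54203875-54204124, minus strand), Aldoc (chr11:78322823-78323072, plus strand), Pgam2 (chr11:5803797-5804046, minus strand), Bnip3 (chr7:138909507-138909756, minus strand), P4ha1 (chr10:59323046-59323295, plus strand) and Pgk1 (chrX:106186850-106187099, plus strand).
Egln3 promoter: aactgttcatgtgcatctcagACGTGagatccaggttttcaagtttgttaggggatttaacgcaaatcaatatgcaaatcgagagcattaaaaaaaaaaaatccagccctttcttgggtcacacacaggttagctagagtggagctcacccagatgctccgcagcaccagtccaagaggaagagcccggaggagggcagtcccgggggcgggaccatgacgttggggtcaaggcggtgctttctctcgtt
Aldoc promoter: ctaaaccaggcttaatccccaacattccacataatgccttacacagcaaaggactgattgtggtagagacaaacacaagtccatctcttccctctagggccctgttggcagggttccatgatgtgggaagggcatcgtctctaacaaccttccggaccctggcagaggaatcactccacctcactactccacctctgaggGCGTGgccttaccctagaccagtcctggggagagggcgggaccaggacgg
Pgam2 promoter: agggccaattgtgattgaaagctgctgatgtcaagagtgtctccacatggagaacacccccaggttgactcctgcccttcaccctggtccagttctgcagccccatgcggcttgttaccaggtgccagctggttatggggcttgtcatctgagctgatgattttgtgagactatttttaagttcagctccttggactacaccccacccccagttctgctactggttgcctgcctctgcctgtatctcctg
Bnip3 promoter: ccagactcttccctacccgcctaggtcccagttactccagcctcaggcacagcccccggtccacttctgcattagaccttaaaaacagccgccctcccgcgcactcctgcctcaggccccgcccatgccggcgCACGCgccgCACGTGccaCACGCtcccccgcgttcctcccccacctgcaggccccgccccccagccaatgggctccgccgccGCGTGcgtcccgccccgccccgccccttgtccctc
P4ha1 promoter: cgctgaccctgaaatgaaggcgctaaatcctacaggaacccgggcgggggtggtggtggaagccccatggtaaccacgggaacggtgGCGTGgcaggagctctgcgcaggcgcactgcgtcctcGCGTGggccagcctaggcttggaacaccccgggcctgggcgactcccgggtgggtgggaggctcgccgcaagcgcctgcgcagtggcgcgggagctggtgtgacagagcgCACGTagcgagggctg
Pgk1 promoter: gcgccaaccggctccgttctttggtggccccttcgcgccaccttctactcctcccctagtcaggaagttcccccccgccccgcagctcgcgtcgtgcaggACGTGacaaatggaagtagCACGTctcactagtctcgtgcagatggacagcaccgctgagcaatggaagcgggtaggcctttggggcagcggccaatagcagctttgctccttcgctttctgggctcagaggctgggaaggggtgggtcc

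Of the 6 windows, Bnip3 held 5 matches, P4ha1 3, Pgk1 2, Egln3 and Aldoc 1 each, and Pgam2 none. Over all members, 42 of 55 windows (76.4%) held ACGTG or GCGTG on either strand, against 38.6% of the 32851 windows of all genes in the table, and 43.6% against 16.6% held ACGTG. A match is a run of letters and not a bound site. Both motifs contain CG, and the base composition of the windows was not matched. Of the members that passed between tissues and are not printed, Hif1a held 3 matches, Pfkl and Ldhb 1 each and Tpi1 none. Pdk1 held 1 in one of its windows and none in the other, and Eno1 1 or 2 in each of its windows. The second Aldoc window, not printed, held 1.

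The other members higher in Peyer's patch passed in ZsGreen+ cells and not in ZsGreen− cells, and for none of them was the difference between the sorts called (adjusted p from 0.254 to 0.718 by edgeR for Hif1a, Bnip3, P4ha1, Pdk1, Ldhb and Pfkl). Hif1a had 789 and 552 CPM in Peyer's patch ZsGreen+ libraries, against 361 and 287 CPM in spleen ZsGreen+ libraries (log2 fold change 1.05 ± 0.25, adjusted p = 0.0226). Its ZsGreen− libraries had 476 and 490 CPM in Peyer's patch and 353 and 558 CPM in spleen, which lay on opposite sides in the 2 experiments (0.08 ± 0.25, adjusted p = 0.922). Pdk1, whose kinase keeps pyruvate out of the mitochondrion, had 42.7 and 28.0 CPM in Peyer's patch ZsGreen+ libraries against 25.0 and 16.7 CPM in spleen ZsGreen+ libraries (0.76 ± 0.15, adjusted p = 0.00681), and 43.7 and 30.9 CPM in Peyer's patch ZsGreen− libraries against 32.8 and 25.1 CPM in spleen ZsGreen− libraries (0.36 ± 0.15, adjusted p = 0.245). Pfkl, the liver-type phosphofructokinase gene, had 79.6 and 104 CPM in Peyer's patch ZsGreen+ libraries against 45.6 and 60 CPM in spleen ZsGreen+ libraries (0.80 ± 0.13, adjusted p = 0.00221), and 85.2 and 92.7 CPM against 54.6 and 75.9 CPM in the ZsGreen− libraries of Peyer's patch and spleen (0.47 ± 0.13, adjusted p = 0.0679).

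Among other HIF targets, P4ha1, a collagen prolyl hydroxylase subunit gene, had 48.2 and 34.7 CPM in Peyer's patch ZsGreen+ libraries, against 25.0 and 19.7 CPM in spleen ZsGreen+ libraries (log2 fold change 0.89 ± 0.15, edgeR adjusted p = 0.00222). Its ZsGreen− libraries had 43.1 and 35.1 CPM in Peyer's patch and 38.3 and 33.1 CPM in spleen (0.13 ± 0.15, adjusted p = 0.742), so that spleen ZsGreen+ cells stood below the other 3 groups. Bnip3, a mitophagy receptor gene, had 6.30 and 22.6 CPM in Peyer's patch ZsGreen+ libraries, against 2.29 and 8.57 CPM in spleen ZsGreen+ libraries (1.43 ± 0.28, adjusted p = 0.00567), and 4.03 and 16.2 CPM against 1.93 and 12.4 CPM in ZsGreen− libraries (0.67 ± 0.29, adjusted p = 0.243). Outside the HIF targets, Ldhb, the lactate dehydrogenase subunit B gene, had 12.3 and 32.9 CPM in Peyer's patch ZsGreen+ libraries, against 7.29 and 15.9 CPM in spleen ZsGreen+ libraries (0.90 ± 0.23, adjusted p = 0.0213). Its ZsGreen− libraries had 14.3 and 32.9 CPM in Peyer's patch and 9.73 and 38.3 CPM in spleen (0.15 ± 0.22, adjusted p = 0.811). Of the remaining tested HIF targets, Ddit4, Mxi1, Kdm3a, Bnip3l and Higd1a did not pass in either sort, with log2 fold changes from -0.61 to 0.45. Ddit4 had 312 and 20.8 CPM in Peyer's patch ZsGreen+, 277 and 27.0 CPM in Peyer's patch ZsGreen−, 385 and 29.1 CPM in spleen ZsGreen+ and 390 and 43.7 CPM in spleen ZsGreen− libraries.

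Slc2a3 and Eno1 were the members lower in Peyer's patch, in ZsGreen+ cells. Slc2a3 encodes the high-affinity glucose transporter GLUT3 and lies at chr6:122704768-122778600 on the minus strand (mm39). It had 19.2 and 11.5 CPM in Peyer's patch ZsGreen+ libraries, against 68.1 and 36.8 CPM in spleen ZsGreen+ libraries, a log2 fold change of -1.76 ± 0.16 (edgeR adjusted p = 4.17e-05). In ZsGreen− cells it had 27.3 and 16.7 CPM in Peyer's patch and 36.1 and 18.7 CPM in spleen (-0.30 ± 0.16, adjusted p = 0.381). Slc2a1, the GLUT1 gene, had 28.8 and 34.6 CPM in Peyer's patch ZsGreen+, 28.0 and 30.1 CPM in Peyer's patch ZsGreen−, 22.2 and 36.1 CPM in spleen ZsGreen+ and 28.0 and 40.8 CPM in spleen ZsGreen− libraries, and passed in no comparison. Eno1, the main enolase gene, had 121 and 515 CPM in Peyer's patch ZsGreen+ libraries, against 182 and 781 CPM in spleen ZsGreen+ libraries (-0.60 ± 0.18, adjusted p = 0.0460). Near-identical copies held most of the summed counts, and with the copies added the call was lost (-0.54 ± 0.21, adjusted p = 0.124).

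Leaving out 1 library at a time, Slc2a3, Pfkl, Tpi1, Pgam2, Egln3 and P4ha1 passed in all 8 fits of the ZsGreen+ tissue comparison. Aldoc was lost without Peyer's patch ZsGreen+ replicate 2 (adjusted p = 0.0580 by edgeR), Bnip3 without Peyer's patch ZsGreen+ replicate 1 or spleen ZsGreen+ replicate 2 (up to 0.0828), and Pdk1 without either of these or spleen ZsGreen+ replicate 1 (up to 0.0864). Ldhb was lost without either Peyer's patch ZsGreen+ library or spleen ZsGreen+ replicate 2 (up to 0.232), Eno1 without any of the 4 ZsGreen+ libraries (up to 0.321), and Hif1a without any of these but Peyer's patch ZsGreen+ replicate 2, or without either Peyer's patch ZsGreen− library (up to 0.209). Fewer than 12 members were called without Peyer's patch ZsGreen+ replicate 1 and without spleen ZsGreen+ replicate 2, and fewer of all tested genes as well. In the ZsGreen− comparison Egln3 passed in all 8 fits. Aldoc and Pgam2 were lost without any of the 4 ZsGreen− libraries, and Tpi1 without any of these or either spleen ZsGreen+ library. Without spleen ZsGreen− replicate 1, Ddit4 was called as lower. Without any of the 4 ZsGreen− libraries, fewer of all tested genes passed as well.

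Between sorts in the spleen, ZsGreen+ Tfh cells had more Slc2a3 and Pgk1 transcript and less P4ha1 and Ldhb transcript than ZsGreen− cells. These 4 of 37 members passed, 2 higher and 2 lower, where 8.62% of all tested genes passed (4.53% higher and 4.09% lower), so the share of members was near that of all genes. The median log2 fold change of the members was -0.11, against -0.03 over all tested genes. Scaled by library totals alone, 2 members were higher and 0 lower, and 852 genes of all tested were higher and 411 lower, against 653 and 590 with TMM.

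Slc2a3 had 68.1 and 36.8 CPM in spleen ZsGreen+ libraries, against 36.1 and 18.7 CPM in spleen ZsGreen− libraries, a log2 fold change of 0.94 ± 0.16 (edgeR adjusted p = 0.00367, fold change 1.92). Within each experiment the ZsGreen+ library was the higher. Pgk1, the phosphoglycerate kinase gene, whose enzyme makes the first ATP of the pathway, had 95.2 and 103 CPM in spleen ZsGreen+ libraries, against 68.0 and 61.3 CPM in spleen ZsGreen− libraries (0.61 ± 0.14, adjusted p = 0.0205). With its near-identical copies added, which held most of the reads, the log2 fold change was 0.56 (adjusted p = 0.0446). P4ha1 had 25.0 and 19.7 CPM in spleen ZsGreen+ libraries, against 38.3 and 33.1 CPM in spleen ZsGreen− libraries (-0.68 ± 0.15, adjusted p = 0.0171). Ldhb had 7.29 and 15.9 CPM in spleen ZsGreen+ libraries, against 9.73 and 38.3 CPM in spleen ZsGreen− libraries (-0.86 ± 0.23, adjusted p = 0.0372), and the difference was -0.41 in experiment 1 and -1.26 in experiment 2 on the log2 scale.

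None of the 4 passed without spleen ZsGreen+ replicate 1 (Slc2a3 adjusted p = 0.0581 by edgeR), and Slc2a3 alone passed without spleen ZsGreen+ replicate 2 or spleen ZsGreen− replicate 2. Without spleen ZsGreen− replicate 1, Pgk1 and P4ha1 were lost and Hif1a passed at -0.92 (adjusted p = 0.0127). Ldhb was also lost without either Peyer's patch ZsGreen− library. Over these fits the adjusted p reached 0.199 for Pgk1, 0.138 for P4ha1 and 0.428 for Ldhb. The 23 proliferation genes moved with the same contrast: 20 were higher in spleen ZsGreen+ cells and 0 lower (median log2 fold change 1.36). Kif11, a mitotic kinesin gene with the smallest p of that list, had 129 and 97.4 CPM in spleen ZsGreen+ libraries, against 52.6 and 33.9 CPM in spleen ZsGreen− libraries. Cxcr5 also moved with this contrast, at the levels given above. The part of proliferation and of the Tfh marker levels in the differences of these 4 members was not tested.

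**Figure D4:**
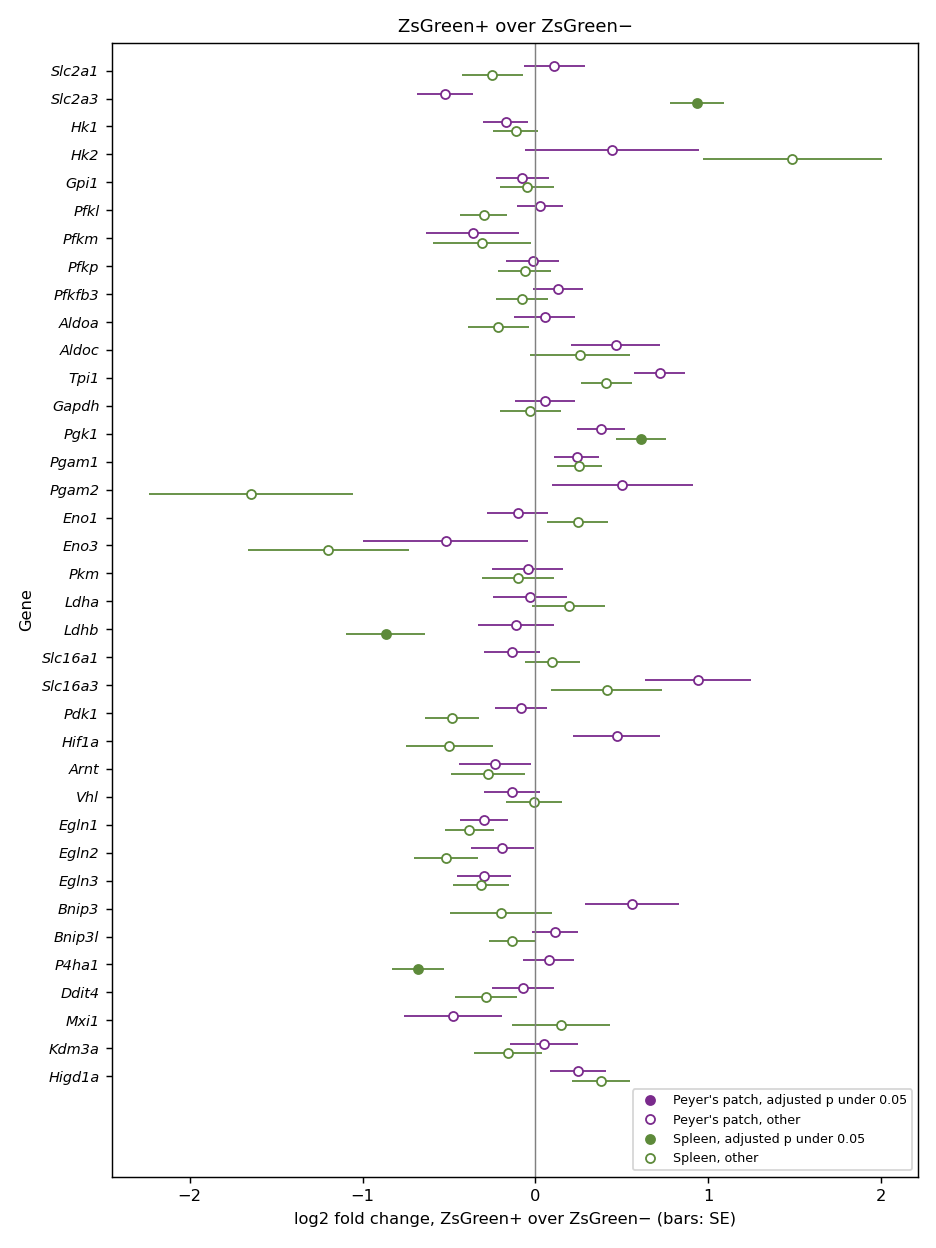
Log2 fold change of ZsGreen+ over ZsGreen− cells for each tested member, in Peyer's patch (purple) and spleen (green), with bars of 1 SE; filled points have an adjusted p under 0.05. No Peyer's patch point is filled; in spleen Slc2a3 and Pgk1 are filled to the right of 0 and Ldhb and P4ha1 to the left, and Slc2a3 lies on opposite sides in the tissues (-0.52 and 0.94).

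Between sorts in the Peyer's patch 0 of 37 members passed, where 0.437% of all tested genes did (0.284% higher and 0.153% lower). At an unadjusted p under 0.05 there were 4 (Tpi1, Pgk1 and Slc16a3 higher, Slc2a3 lower), 10.8% of the members, where 8.13% of all tested genes had such a p. Tpi1 was nearest to the threshold, with 152 and 446 CPM in Peyer's patch ZsGreen+ libraries, against 109 and 231 CPM in Peyer's patch ZsGreen− libraries (log2 fold change 0.72 ± 0.15, edgeR adjusted p = 0.0764). DESeq2 called Tpi1 (adjusted p = 0.00252), as did edgeR with library totals alone (0.00660) or with no count filter (0.0389). Slc16a3, the gene of the lactate exporter MCT4, had 12.8 and 12.2 CPM in Peyer's patch ZsGreen+ libraries, against 7.08 and 5.98 CPM in Peyer's patch ZsGreen− libraries (0.94 ± 0.31, adjusted p = 0.378). It had 9.74 and 5.14 CPM in spleen ZsGreen+ libraries and 5.03 and 6.29 CPM in spleen ZsGreen− libraries, and it held 32.8% and 21% of the summed RPKM of the transporters Slc16a1 and Slc16a3 in Peyer's patch ZsGreen+ cells, the highest share of the 4 groups in experiment 1 and in experiment 2.

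The test of whether the sort contrast differed between tissues called 1 member, Slc2a3, where 0.0971% of all tested genes passed (0.0277% higher and 0.0694% lower). By library totals alone it called 55 genes higher and 58 lower, against 4 and 10 with TMM, and Slc2a3 among the members. ZsGreen+ cells had less Slc2a3 than ZsGreen− cells in Peyer's patch, at 19.2 and 11.5 CPM against 27.3 and 16.7 CPM (log2 fold change -0.52 ± 0.16, edgeR adjusted p = 0.353), and more in spleen, at 68.1 and 36.8 CPM against 36.1 and 18.7 CPM. The difference of the contrasts was -1.46 ± 0.23 (adjusted p = 0.0338), -1.42 in experiment 1 and -1.51 in experiment 2. Slc2a3 held 24.4% and 13.8% of the summed RPKM of Slc2a1 and Slc2a3 in Peyer's patch ZsGreen+ libraries, 32.0% and 21.2% in Peyer's patch ZsGreen−, 59.8% and 33.0% in spleen ZsGreen+ and 38.4% and 18.2% in spleen ZsGreen− libraries. The call held without Peyer's patch ZsGreen+ replicate 2 and without spleen ZsGreen− replicate 1, and it was lost without any of the other 6 libraries (adjusted p up to 0.236, log2 differences from -1.57 to -1.38 over these fits and the other settings). Without spleen ZsGreen− replicate 1, Hif1a passed as well (1.37, adjusted p = 0.0265). Of the other members P4ha1 had 0.75 ± 0.21 (adjusted p = 0.254), Hif1a 0.97 ± 0.35 (0.465) and Pgam2 2.15 ± 0.72 (0.374).

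**Figure D5:**
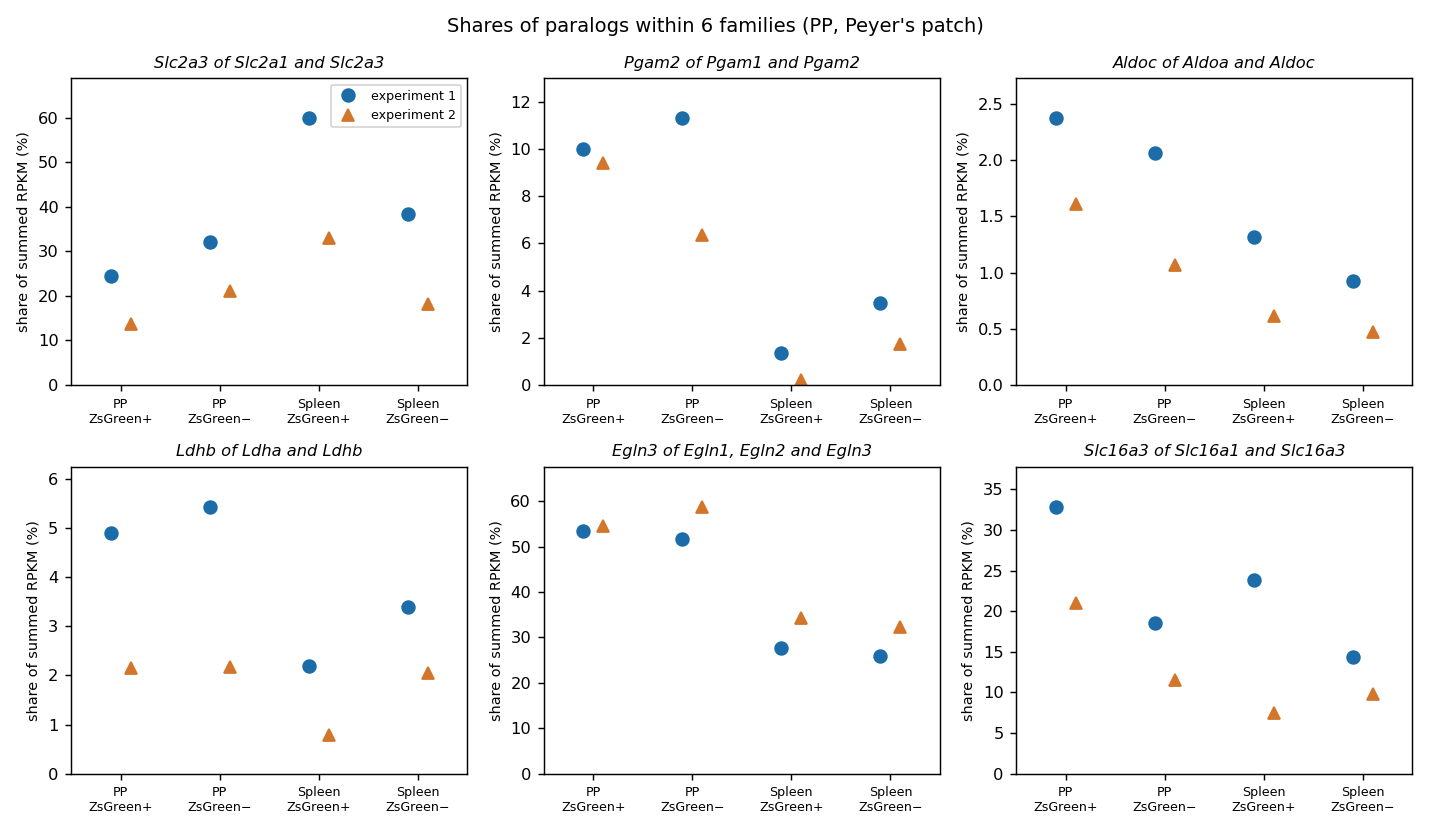
Share of one paralog in the summed RPKM of its family in each library, by group, with circles for experiment 1 and triangles for experiment 2; every axis starts at 0. Egln3 lies at 51.7% to 58.7% in Peyer's patch and 25.9% to 34.3% in spleen, Pgam2 is also higher in every Peyer's patch library, and Slc2a3 peaks in spleen ZsGreen+ cells within each experiment.

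Members that passed in no comparison included most of the abundant enzymes. Ldha had 503 and 3160 CPM in Peyer's patch ZsGreen+, 527 and 3150 CPM in Peyer's patch ZsGreen−, 684 and 4310 CPM in spleen ZsGreen+ and 584 and 3860 CPM in spleen ZsGreen− libraries. It was highest in spleen ZsGreen+ cells in each experiment. Its log2 fold change of Peyer's patch over spleen in ZsGreen+ cells was -0.45 ± 0.21 (edgeR adjusted p = 0.206), and DESeq2 called it (adjusted p = 0.000144). Pkm had 862 and 2090, 903 and 2120, 811 and 1780, and 743 and 2220 CPM, and Aldoa 405 and 1120, 435 and 961, 326 and 824, and 347 and 1040 CPM, in Peyer's patch ZsGreen+, Peyer's patch ZsGreen−, spleen ZsGreen+ and spleen ZsGreen− libraries. Gapdh, which copies make uncertain, had 145 and 163, 130 and 169, 144 and 154, and 113 and 202 CPM in the same order of groups.

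At the entry of the pathway, Hk1 had 180 and 108 CPM in Peyer's patch ZsGreen+, 216 and 113 CPM in Peyer's patch ZsGreen−, 212 and 125 CPM in spleen ZsGreen+ and 226 and 138 CPM in spleen ZsGreen− libraries, and its log2 fold changes lay between -0.23 and -0.11 in the 4 sort and tissue contrasts. Hk2 was sparse, at 4.95 and 0.825, 3.59 and 0.554, 6.71 and 3.17, and 3.10 and 0.920 CPM in that order of groups, with 5 to 126 estimated counts. It was highest in spleen ZsGreen+ cells in each experiment (ZsGreen+ over ZsGreen− in spleen 1.49 ± 0.52, edgeR adjusted p = 0.109). Pfkp had 284 and 340, 245 and 405, 207 and 313, and 223 and 317 CPM. Pfkfb3, which encodes an enzyme that makes the phosphofructokinase activator fructose 2,6-bisphosphate, had 84.3 and 11.7, 73.0 and 11.5, 79.6 and 11.7, and 79.0 and 13.5 CPM, and its log2 fold changes lay between -0.16 and 0.13. Vhl, the gene of the ubiquitin ligase subunit that recognises hydroxylated HIF-1α, had 29.5 and 29.8, 30.3 and 35.0, 25.5 and 32.3, and 29.4 and 28.1 CPM, with log2 fold changes between -0.13 and 0.17.

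The other uncalled members (Gpi1, Pfkm, Pgam1, Eno3, Slc16a1, Arnt, Egln1, Egln2, Bnip3l, Mxi1, Kdm3a and Higd1a) had levels from 2.33 CPM for Eno3 to 355 CPM for Pgam1. Their log2 fold changes lay between -1.20 and 0.73 in the 4 sort and tissue contrasts, the lowest in Eno3, the muscle enolase gene, and the highest in Pfkm, the muscle phosphofructokinase gene. In spleen the sort contrast was negative in each experiment for Egln1, Egln2, Egln3 and Arnt, though none passed. Over all members it was negative in both experiments for 17 of 37 (45.9%, against 34.9% of all tested genes) and positive in both for 10 (27.0% against 31.7%).

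The experiments differed at several members by more than the groups did. Ddit4 averaged 3.53 lower on the log2 scale in experiment 2 than in experiment 1, Pfkfb3 2.69 lower and Ldha 2.65 higher, each in the same direction in all 4 groups. By at least 2 log2 units in every group, 3 of 37 members (8.11%) and 9.23% of all tested genes differed between the experiments. The labels name 2 kinds of library preparation without saying which library had which.

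Related genes outside the list of members are given by the lists they belong to. In the tissue comparison of ZsGreen+ cells, where 12.7% of all tested genes passed, 9 of 28 other hypoxia-induced genes, 3 of 15 other glycolytic genes and 2 of 11 other HIF and oxygen-sensing genes passed. Of 8 pentose phosphate pathway genes 0 passed in any comparison. Of 15 other glycolytic genes tested, Slc2a6, a glucose transporter gene, was higher in spleen ZsGreen+ than in spleen ZsGreen− cells (9.64 and 10.6 CPM against 2.35 and 4.60 CPM, log2 fold change 1.63, edgeR adjusted p = 0.0441). Galk1, the galactokinase gene, was higher in Peyer's patch than in spleen, at 16.1 and 56.3 CPM against 7.77 and 22.5 CPM in ZsGreen+ cells (adjusted p = 0.00123) and at 19.0 and 46.9 CPM against 11 and 26.7 CPM in ZsGreen− cells (adjusted p = 0.0258). Eno2 was higher in Peyer's patch in ZsGreen+ cells (5.57 and 2.55 CPM against 0.586 and 0.771 CPM, adjusted p = 0.0155).

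Among 11 genes that feed pyruvate into the mitochondrion, Mpc1, a subunit gene of the pyruvate carrier, was higher in spleen ZsGreen+ than in spleen ZsGreen− cells (18.1 and 232 CPM against 10.4 and 151 CPM, edgeR adjusted p = 0.0246), and Pdp1, which encodes the phosphatase that opposes PDK1, was lower in Peyer's patch than in spleen ZsGreen+ cells (4.72 and 6.08 CPM against 15.2 and 15.9 CPM, log2 fold change -1.54, adjusted p = 0.00140). Of 15 growth-signal regulators only Sesn3, a sestrin gene, passed, lower in spleen ZsGreen+ than in spleen ZsGreen− cells (236 and 23.4 CPM against 393 and 47.1 CPM, adjusted p = 0.00351) and higher in Peyer's patch than in spleen ZsGreen+ cells (449 and 48.6 CPM against 236 and 23.4 CPM, adjusted p = 0.000810). Of 11 other HIF and oxygen-sensing genes, Cited2, whose protein competes with HIF-1α for its coactivator, was lower in Peyer's patch in ZsGreen+ cells (96.3 and 113 CPM against 134 and 306 CPM, adjusted p = 0.0222) and in ZsGreen− cells (73.3 and 125 CPM against 138 and 310 CPM, adjusted p = 0.0189). Eloc was lower in Peyer's patch in ZsGreen+ cells (adjusted p = 0.0268), and Epas1, the HIF-2α gene (19.4 and 1.55 CPM against 3.58 and 0.767 CPM, adjusted p = 0.0249), and Arnt2 (30.3 and 1.22 CPM against 9.73 and 1.07 CPM, adjusted p = 0.0369) were higher there in ZsGreen− cells. In experiment 2 Epas1 and Arnt2 were sparse, and Arnt2 differed little between the tissues.

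Of 28 other hypoxia-induced genes tested, 5 were higher and 4 lower in Peyer's patch than in spleen ZsGreen+ cells. Of all tested genes, 5.51% were higher and 7.17% lower there. In ZsGreen− cells 1 of the 28 was higher and 2 lower, where 1.82% of all tested genes were higher and 3.68% lower. Adm, the adrenomedullin gene, was higher in Peyer's patch in ZsGreen+ cells (1.41 and 3.68 CPM against 0.0532 and 0.171 CPM, edgeR adjusted p = 0.00357) and in ZsGreen− cells (4.46 and 4.54 CPM against 0.321 and 1.23 CPM, adjusted p = 0.0229). Ak4 and Gys1 were also higher in ZsGreen+ cells (adjusted p = 0.00869 and 0.0268), with Ak4 at 0 counts in both spleen ZsGreen+ libraries and at least 19.3-fold higher in Peyer's patch against a floor of 3 counts over the group. Rora, a nuclear receptor gene also known for its role in Th17 cells, was lower in Peyer's patch in ZsGreen+ cells (60.7 and 69.8 CPM against 214 and 566 CPM, adjusted p = 0.00142) and in ZsGreen− cells (33.3 and 43.8 CPM against 84.0 and 153 CPM, adjusted p = 0.0192), as was Ndrg1 (adjusted p = 0.0250 and 0.0367). Ero1a, an oxidase gene of protein folding, was lower in Peyer's patch in ZsGreen+ cells (48.1 and 39.1 CPM against 73.1 and 78.9 CPM, adjusted p = 0.00535). In spleen, 4 of the 28 were higher in ZsGreen+ than in ZsGreen− cells and 0 lower: Ero1a (73.1 and 78.9 CPM against 29.5 and 25.3 CPM, adjusted p = 0.000309), Rora (adjusted p = 0.0113), the lipid droplet gene Plin2 (adjusted p = 0.0154) and Tfrc (adjusted p = 0.0390). Of all tested genes, 4.53% were higher and 4.09% lower in that spleen contrast. The median log2 fold change of the 28 genes there was -0.181, and 10 of them had a positive value. The 23 proliferation genes moved with these tissue contrasts as well, 21 of them lower in Peyer's patch than in spleen ZsGreen+ cells and 8 lower in ZsGreen− cells.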

How the data were processed

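RNA of sorted cells was extracted with Trizol, per the labels' protocols. The authors deposited an estimated count per gene and library, with no scaling, and these were rounded to whole numbers. A deposited signal per gene equals that count times 1 constant per library and served 1 alternative. Submitters' processing notes name Partek, STAR, DESeq2 and mm39, without a version.

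edgeR 4.0.16 (R 4.3.3) tested 14418 of 16735 shared genes after filterByExpr (minimum count 10, minimum total 15) with TMM scaling, a mean per group and an experiment term, leaving 3 residual degrees of freedom. Adjusted p-values are two-sided quasi-likelihood tests with Benjamini-Hochberg adjustment, threshold 0.05. In the same model the SE of a log2 fold change is its size over the square root of F. Log2 CPM used a prior count of 2, and RPKM the union exon length of GENCODE M21 (GRCm38). Replicate numbers mark a shared experiment, per the labels; deviations from group means correlated within an experiment with r from 0.825 to 0.867 across genes (6 pairs). On simulated counts for the spleen sort contrast the test recovered 52.5% of genes changed by 1 log2 unit and 79.0% changed by 2. Of its calls 9.66% were false (13855 genes), above the threshold of 0.05. The counts were drawn from the fitted model with 99 and 100 genes changed by these sizes, where 1243 genes passed in the data. These shares need not hold for the data. Near-identical copies were found with BLAST+ 2.17.0 among GENCODE M21 transcripts.

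The members, the gene lists and the tests were chosen with earlier results of these data known. Values in every library are given for members that passed in any of 5 contrasts and for 23 that were always named; other members are given by ranges, and of each related list the genes that passed, up to 6 per contrast, chosen by smallest p. Alternatives were DESeq2 1.42.0, other scalings and filters, limma 3.58.1 on log2(signal + 1), no experiment term, only the compared libraries, and each library left out. Copies added to their gene were an alternative chosen after seeing the data. A gene of the related lists is not reported here.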

Additional observations from a re-analysis of the deposited data

Results flagged for a closer look

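Slc2a3, the GLUT3 gene, differed in its response to the sort between tissues. The ZsGreen+ over ZsGreen− contrast was -0.52 ± 0.16 (SE) in Peyer's patch and 0.94 ± 0.16 in spleen on the log2 scale, and the test of the difference itself gave -1.46 ± 0.23 (edgeR adjusted p = 0.0338), with the same sign in experiments 1 and 2. It was lost without any of 6 of the 8 libraries (adjusted p up to 0.236).

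Vegfa, which took no part in the tests, had 4 estimated counts in Peyer's patch ZsGreen+ replicate 2, above the limit of 3 that a count of 0 allows, against 0 in Peyer's patch ZsGreen−, 1 in spleen ZsGreen+ and 2 in spleen ZsGreen− cells of experiment 2. No comparison was made at this depth.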

How the results depend on the processing

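Of 21 called values of single members, 278 of 356 alternative values stayed past the threshold, 78 did not and 0 changed sign; 104 uncalled values of named members gave 13 calls under 1744 alternatives. The number of members called rose to 1 in the Peyer's patch sort contrast with DESeq2, with library totals only and with no count filter (each time Tpi1, from 0), and fell to 2 in the spleen sort contrast with library totals only (from 4); the cause was not tested. Without the replicate block (no experiment term), 0 members and 0 genes of all tested passed in any of the 5 comparisons, since the experiments then count as replicate spread. Leaving out 1 library gave 0 to 4 members in the spleen sort contrast, 7 to 12 in the tissue contrast of ZsGreen+ cells, 1 to 4 in that of ZsGreen− cells and 0 to 2 in the difference of the sort contrasts; a group left with 1 library is assumed to vary like the others. Scaling by library totals moved the median of all tested genes by up to 0.16 (log2). The module difference of Peyer's patch over spleen in ZsGreen+ cells (0.337) became 0.298 with RLE factors, 0.464 with library totals, 0.211 as a median, 0.088 as summed CPM and 0.346 with a prior count of 0.5. In ZsGreen− cells (0.19) it became 0.365 with library totals and 0.0148 as summed CPM. With library totals the sort difference of the module was 0.156 in Peyer's patch (from 0.0471) and 0.0575 in spleen (from -0.0998), where it changed sign with the scaling. Depth limits Pgam2 in spleen, Hk2 and Vegfa, which rest on few counts. Among the related genes it also limits Adm in spleen (0.0532 to 1.23 CPM), Ak4, and Epas1 and Arnt2 in experiment 2. With 2 libraries a group, a value that missed the threshold is not shown to be equal between groups.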
